A study of Sus scrofa with 10 samples.

Results

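Aortic valve leaflets of adult swine with inherited high blood cholesterol were compared with leaflets of juveniles of the same breed. The comparison takes in 7 of the series' 10 arrays, chosen by their labels. They are 4 arrays of adult Rapacz Familial Hypercholesterolemic (RFH) swine aged 2 years and 3 arrays of juvenile RFH swine aged 3 months. The remaining 3 arrays came from juvenile wild-type (WT) animals of another breed, Rapacz Wisconsin Miniature Swine, whose genotype the labels give as RFH -/-. Those animals were also 3 months old, and their values are given only beside the RFH values. All animals were female and ate standard chow. Leaflets went into RNAlater within an hour of death. The labels name no agent or transgene, and they do not say that each array is a separate animal, so p-values measure the spread between arrays as labelled. Among the arrays used here no adult WT animal stands against the adult RFH animals, so a change with age and a change with years of high cholesterol cannot be told apart.

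An aortic valve leaflet is a thin sheet of matrix filled with interstitial cells, which behave much like fibroblasts and can become contractile, and covered by endothelium. Resident macrophages and a few other immune cells lie between them. The juvenile leaflet is still growing and lays down matrix. In the adult leaflet turnover is slow, and lipid and macrophages gather in it when blood cholesterol stays high. Besides matrix and inflammation, such a change can involve lysosomes, energy metabolism, the secretory pathway, cell division and blood clotting, which are the subject here. Immediate early and heat shock genes, collagen genes and cytokines moved too. Of their measured members 21 of 29 and 15 of 47 rose for the stress genes and the cytokines, and 13 of 21 fell for the collagens.

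The tissue label was checked against marker genes. Decorin (DCN), lumican (LUM) and vimentin (VIM), made by interstitial cells, lay between 13.30 and 14.42 on the log2 scale in every RFH array, near the top of the scale, and the endothelial gene PECAM1 lay between 11.78 and 12.90. Array medians lay between 6.96 and 7.03. Juvenile RFH replicate 2 stood apart in heart muscle transcripts. The mean of 21 cardiac genes was 8.19 in it and 5.85 and 6.06 in the other juvenile RFH arrays, and the counts that move without it are given with the cell cycle genes and near the end. The 4 adult arrays varied more than the juvenile ones, with a larger SD in adults in 75.3% of genes. Spiked poly-A control probe sets averaged 7.12 ± 0.16 (SD, n = 4) in adult and 6.32 ± 0.02 (SD, n = 3) in juvenile RFH arrays, 0.80 apart (two-sided exact permutation p = 0.0571, and with 4 against 3 arrays no lower value is possible). The labels name no batch, so a difference in handling between the age groups cannot be told apart from age. In bulk tissue, fewer cells of a type and less RNA per cell cannot be told apart either.

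Of 23999 probe sets, 4025 (16.8%) differed between adult and juvenile RFH leaflets at an adjusted p under 0.05 by limma's moderated test, in a fit whose spread was estimated over all 10 arrays. By gene, with the brightest probe set standing for each of 6765 genes, 1305 (19.3%) changed. Of these, 774 (11.4% of genes) rose and 531 (7.85%) fell, and 252 of the rises but 65 of the falls were at least 2-fold. When only the 7 RFH arrays set the spread, 756 genes (11.2%) passed, 478 upward (7.07%) and 278 downward (4.11%). The 4 adult values did not overlap with the 3 juvenile RFH values in 2025 genes (29.9%). Counts for gene groups below are read against these shares.

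The stress, collagen and cytokine lists and a further 38 measured genes were set aside in choosing the largest changes, and some of these moved more, such as the fatty acid carrier FABP4, 14.2-fold higher. Among the other genes, the largest rises included ANGPTL4, SLC2A3, PHLDA2 and CD83. ANGPTL4, a secreted inhibitor of lipoprotein lipase, was at 6.41, 6.44 and 6.23 in juvenile RFH replicates 1 to 3 and at 9.87, 10.42, 9.86 and 9.29 in adult replicates 1 to 4. It rose by 3.50 ± 0.24 (SE, adjusted p = 1.86e-05), which is 11.3-fold. SLC2A3, the glucose transporter GLUT3, stood at 8.40, 8.39 and 8.50 in the juvenile RFH and at 11.15, 11.70, 11.44 and 11.64 in the adult arrays. Its rise of 3.05 ± 0.13 (SE, adjusted p = 5.36e-07) was 8.30-fold. PHLDA2, an imprinted gene that restrains placental growth, rose from 7.76, 8.11 and 8.12 to 10.96, 11.44, 10.59 and 11.11 (8.19-fold, adjusted p = 5.90e-06). CD83, a surface protein of activated dendritic and B cells, was even within each group, at 9.60, 9.68 and 9.79 in juvenile RFH and 12.35, 12.38, 12.32 and 12.54 in adult arrays (6.54-fold, adjusted p = 2.11e-06). Juvenile WT means lay near the juvenile RFH values for all 4 genes, at 6.59, 8.01, 8.22 and 9.68.

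A pair of cyclic AMP genes were among them. CREM, a transcription factor that answers to cyclic AMP, rose 6.22-fold (adjusted p = 5.74e-05), with juvenile RFH values of 9.68 to 10.14 and adult values of 11.90 to 12.98. PDE4B, a phosphodiesterase that breaks cyclic AMP down, rose 5.56-fold, from 7.23 to 8.08 in juvenile RFH arrays to 9.32 to 10.60 in adults. STX11, a membrane fusion protein of immune cells, rose 5.51-fold with an adjusted p of 1.00e-05. S100A1, a calcium sensor known from heart muscle, rose 5.75-fold, to adult values of 8.33 to 9.94. Of 21 cardiac genes 0 rose, but the juvenile RFH group they were compared with includes the array with heart muscle transcripts. A part of heart muscle in the S100A1 rise was not tested.

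A subset of the large rises was uneven among adults. SMPDL3A, a phosphodiesterase related to acid sphingomyelinase, was at 11.56 and 11.75 in adult replicates 1 and 2 but at 9.63 and 9.36 in replicates 3 and 4, against 6.89, 7.65 and 7.71 in juvenile RFH arrays. HPSE, the enzyme heparanase that cuts heparan sulfate, was at 8.53, 9.26, 7.51 and 6.46 in the adults and at 5.16, 5.38 and 5.08 in the juveniles. ACP5, the tartrate-resistant acid phosphatase of osteoclasts and macrophages, was at 10.09, 11.55, 9.64 and 8.88 against 7.51, 7.57 and 7.29. GPNMB, a glycoprotein of lipid-laden macrophages, was at 12.13, 12.85, 11.80 and 10.80 against 9.33, 9.20 and 9.48. In each of these 4 genes the adult values exceeded every juvenile value, replicates 1 and 2 were the highest, and the fold ranged from 5.88 to 8.92. S100A9, a neutrophil and macrophage protein, was at 7.74, 7.62 and 8.18 in 3 adult arrays and at 5.52 in replicate 4, against 4.45 to 4.60 in juvenile RFH arrays (6.66-fold, adjusted p = 0.00482).

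**Figure D1:**
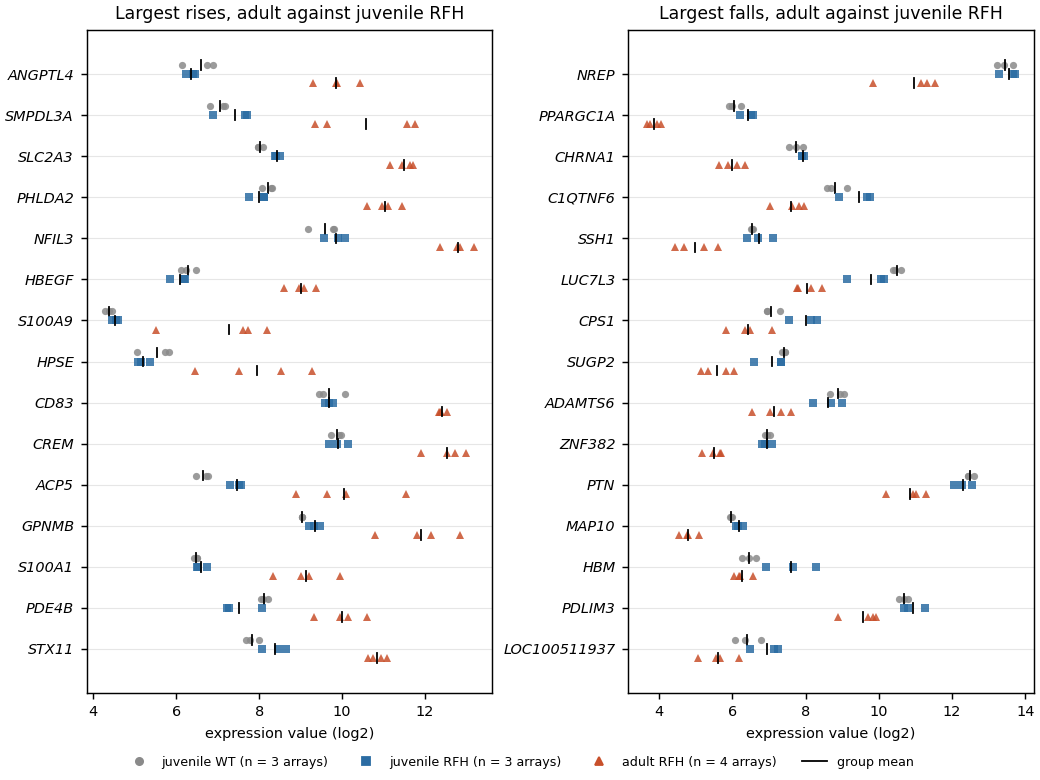
Expression values on the log2 scale (x axis) of the 15 largest rises and 15 largest falls among genes outside the stress, collagen and cytokine lists and the 38 further genes set aside, with 1 point per array and a bar at each group mean. Adult and juvenile RFH points do not overlap, as the rule that chose the genes required, and SMPDL3A, HPSE and ACP5 spread more widely among the adults than SLC2A3 or CD83.

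Among the genes not set aside, the deepest falls were of NREP, PPARGC1A and CHRNA1. NREP, a small protein expressed in regenerating neurons and myofibroblasts, was at 13.73, 13.65 and 13.29 in juvenile RFH arrays and at 11.31, 9.84, 11.15 and 11.52 in adults. It fell by 2.60 ± 0.34 (SE, adjusted p = 0.000845), and adult replicate 2 was the lowest. PPARGC1A, the coactivator PGC-1alpha that drives mitochondrial genes, was at 6.55, 6.50 and 6.22 in juvenile RFH and 3.65, 3.76, 3.95 and 4.05 in adult arrays. It fell by 2.57 ± 0.13 (SE, adjusted p = 2.11e-06), and since the adult values are among the lowest on the arrays, the size of the fall depends on background. CHRNA1, the alpha subunit of the muscle acetylcholine receptor, was at 7.95, 7.89 and 7.90 in the juveniles and at 6.34, 5.64, 5.87 and 6.13 in the adults (3.79-fold lower, adjusted p = 5.40e-05). PTN, the heparin-binding growth factor pleiotrophin, fell 2.69-fold, from 12.53, 12.26 and 12.06 to values of 10.20 to 11.30. Juvenile WT arrays averaged 13.43 for NREP, 6.05 for PPARGC1A, 7.73 for CHRNA1 and 12.49 for PTN, on the juvenile RFH side in all 4.

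Other deep falls were spread over several functions. C1QTNF6, a secreted protein of the C1q and TNF family, fell 3.60-fold and ADAMTS6, a secreted metalloproteinase, fell 2.81-fold. SSH1, the phosphatase that activates cofilin, fell 3.37-fold, and PDLIM3, which binds alpha-actinin in muscle, fell 2.54-fold. The RNA-binding genes LUC7L3 and SUGP2 fell 3.34-fold and 2.82-fold. CPS1, the enzyme that opens the urea cycle, fell 2.96-fold, from 7.54, 8.31 and 8.16 to 6.48, 5.81, 6.36 and 7.09, but its juvenile WT mean was 7.07, near the adult values. HBM, a haemoglobin chain, fell 2.57-fold, and its juvenile WT mean of 6.45 was likewise close to the adult values of 6.03 to 6.57. ZNF382, a zinc finger repressor, and MAP10, a microtubule protein, fell 2.70-fold and 2.62-fold, and the locus LOC100511937, which has no gene name in the annotation, 2.52-fold.

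Gene groups differed in how many members changed and in which direction. Of the 37 functional lists, 9 had a share of rises of at least 25%, against 11.4% of all genes. They were the lists of D-type cyclins and CDK inhibitors, lysosome, NF-kappaB, amino acid starvation, coagulation, S100, TGF-beta and BMP, clock and hypoxia genes. In the first of these, PLK, BTG and E2F genes and CDKN2D rose, and no D-type cyclin was called. Cytosolic ribosomal proteins (1 of 59 called), oxidative phosphorylation (2 of 57) and the proteasome (2 of 39) lay below the background. The amino acid starvation list was called in both directions alike, with 6 rises and 6 falls among 18 members.

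**Figure D2:**
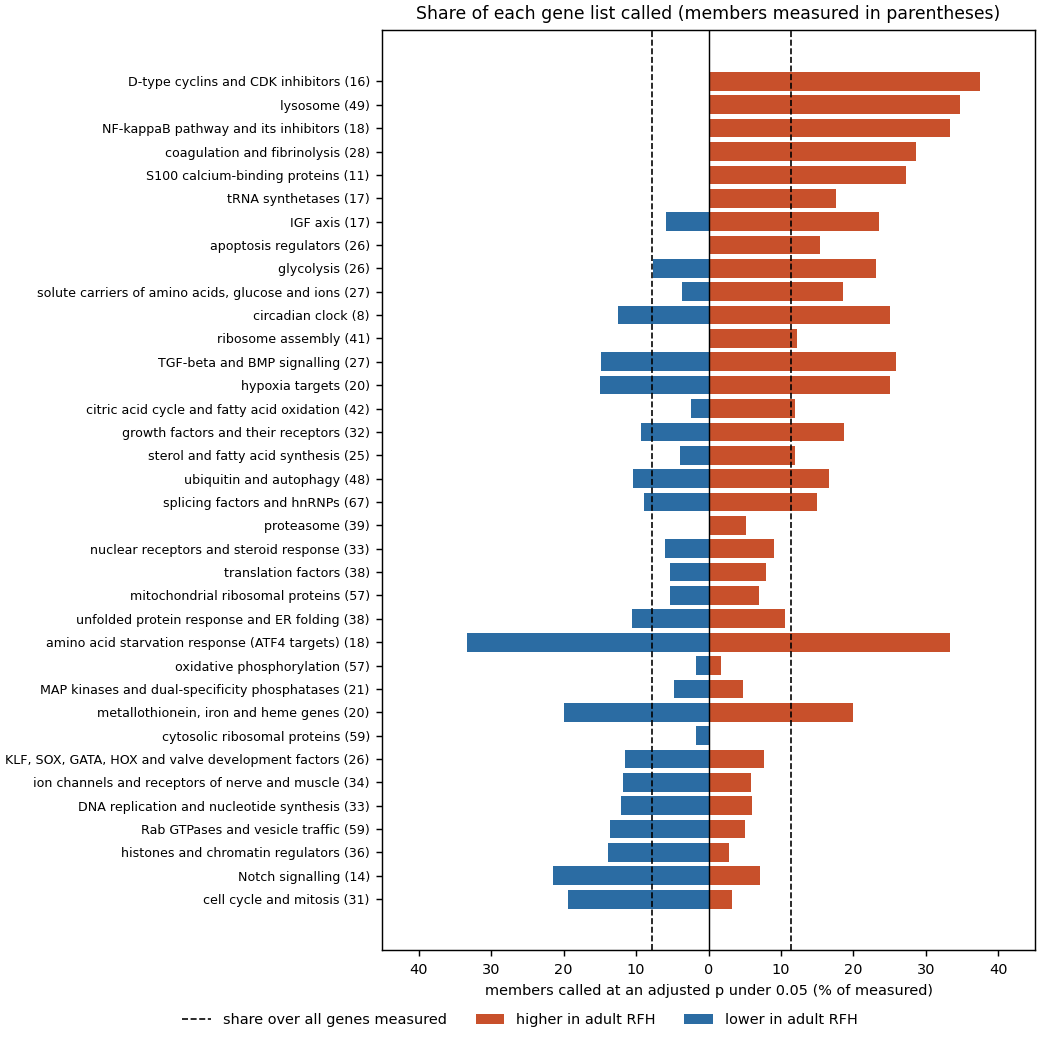
Share of measured members (x axis, percent) called higher (right) or lower (left) in adult RFH leaflets for the functional lists reported, with the number of members measured in parentheses and dashed lines at the shares over all genes, 11.4% and 7.85%. Cell cycle and amino acid starvation genes have long bars to the left, lysosome and NF-kappaB genes have bars to the right only.

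Of 49 measured lysosomal genes 17 rose (34.7%) and 0 fell, against 11.4% and 7.85% of all genes, and the list's median change was 0.26 against 0.02 over all genes. With only the 7 RFH arrays 11 rose, and without juvenile RFH replicate 1 the count was 10. The members span the main tasks of the organelle. ARSA, the sulfatase that degrades sulfatide, was at 8.71, 8.67 and 8.59 in juvenile RFH and 9.29, 9.48, 9.40 and 9.29 in adult arrays, a small but even rise of 0.71 ± 0.08 (SE, adjusted p = 0.000470). GLA, which removes galactose from glycolipids, rose by 1.04 ± 0.13 (adjusted p = 0.000594), from values of 7.40 to 7.67 to values of 8.30 to 8.79. The protease gene CTSH rose by 1.13 ± 0.17 (adjusted p = 0.00208), from 11.37 to 11.44 to values of 12.22 to 13.06. LIPA, the acid lipase that frees cholesterol from lipoprotein esters, was singled out after its values were seen. It was at 9.92, 10.08 and 9.97 in juvenile RFH and at 11.37, 11.68, 10.72 and 10.70 in adult arrays, a rise of 1.13 ± 0.21 (SE, adjusted p = 0.00610). The other members that rose include the proteases CTSD, CTSZ and LGMN, the cholesterol carrier NPC2, the membrane protein LAMP1 and 5 subunits or partners of the proton pump that acidifies the organelle, ATP6AP2, ATP6V1A, ATP6V1C1, ATP6V1F and ATP6V1H.

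Macrophage markers rose as well, and like the lysosomal genes they had their highest mean in adult replicate 2. Of 18 measured macrophage markers 10 rose and 0 fell, with a median change of 0.70, and 6 rose when juvenile RFH replicate 1 or 3 was left out or with only the 7 RFH arrays. The mean of the macrophage list was 9.96, 10.22, 9.50 and 9.49 in adult replicates 1 to 4 and at most 9.04 in juvenile RFH arrays. The lysosome list had means of 10.58, 10.78, 10.50 and 10.44 in the adults and 10.17 to 10.24 in juvenile RFH arrays, so replicate 2 was the highest in both lists. Replicate 2 also had the highest adult mean in the ribosome assembly, NF-kappaB, endothelial, T and NK cell and B cell lists. In the clotting and adipocyte lists replicate 1 had it. The order was thus not particular to macrophage and lysosome genes. The part of macrophages in the lysosomal rise was not tested. Of the 17 lysosomal genes that rose, 14 had their highest adult value in replicate 2, and in 11 replicates 1 and 2 both lay above 3 and 4. The same was not counted over the other genes that rose, so these counts have no background share. GLA was not among the 11, at 8.30 and 8.71 in replicates 1 and 2 and 8.79 and 8.48 in 3 and 4.

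**Figure D3:**
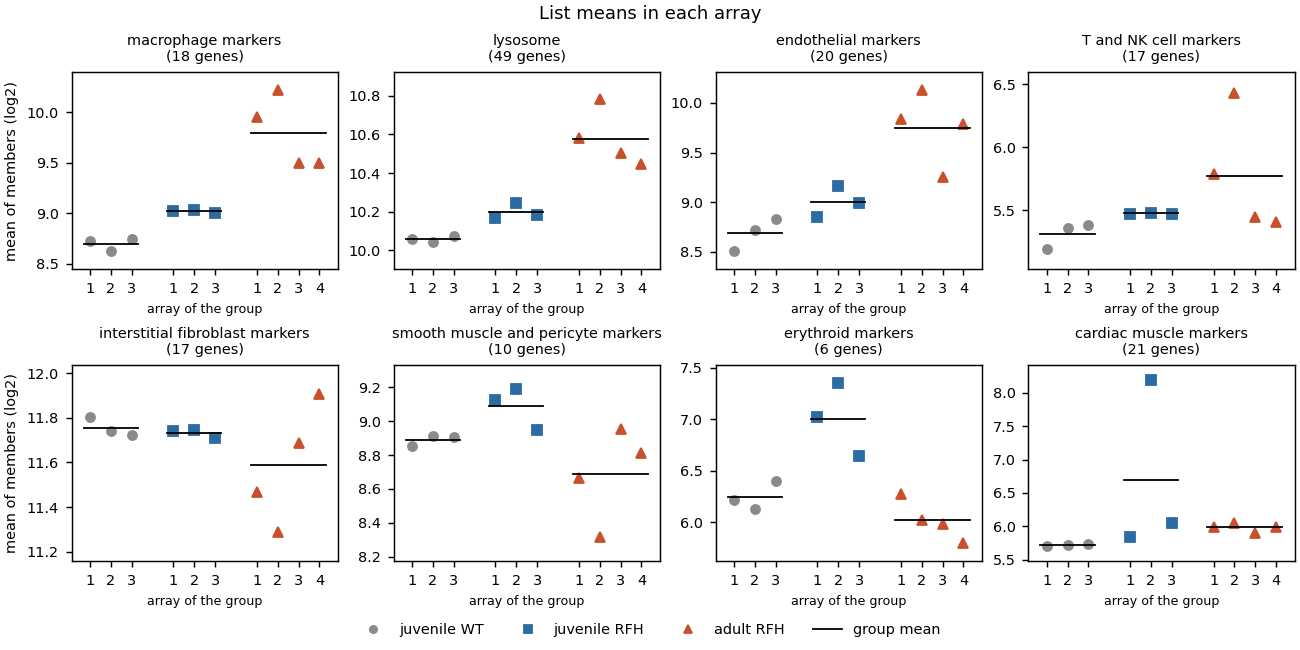
Mean log2 expression (y axis) over the members of 8 gene lists in each array, with a bar at each group mean. Macrophage, lysosome, endothelial and T and NK cell means were highest in adult replicates 1 and 2. Fibroblast means were the lowest adult ones there, and the cardiac mean stood at 8.19 in juvenile RFH replicate 2 alone.

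In energy metabolism 6 of 26 glycolysis genes rose and 2 fell, with a median of 0.15, and 3 rose without juvenile RFH replicate 1. Besides SLC2A3, the rises were in PGM2, a phosphopentomutase, by 1.50 ± 0.19 (SE, adjusted p = 0.000762), in the enolases ENO1 and ENO2, in GPI and in LDHA, which turns pyruvate into lactate. ENO1 was at 11.38 to 11.45 in juvenile RFH and 11.97 to 12.44 in adult arrays. LDHA rose by 0.69 ± 0.18 (adjusted p = 0.0251; 0.0701 with only the 7 RFH arrays). PFKM, the muscle phosphofructokinase, fell by 0.63 ± 0.14. PDK4, a kinase that inhibits pyruvate dehydrogenase, fell by 0.85 ± 0.25 (adjusted p = 0.0407, and 0.0571 with only the 7 RFH arrays), with adult replicate 2 the lowest at 10.40. SLC2A1, the other widely expressed glucose transporter, changed by -0.07 ± 0.09 (adjusted p = 0.660). TXNIP, which lowers glucose uptake, fell by 0.50 ± 0.11 (adjusted p = 0.0117), from 14.06 to 14.08 in juvenile RFH arrays to 13.33 to 13.71 in adults.

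Of 57 oxidative phosphorylation genes 1 rose and 1 fell (3.51% called), with a median of 0.03. The rise was cytochrome c, CYCS, the electron carrier that can also start apoptosis, at 7.52, 7.52 and 7.77 in juvenile RFH and 9.28, 9.63, 9.40 and 9.11 in adult arrays (3.37-fold, adjusted p = 3.45e-05). The fall was NDUFS1, a subunit of complex I, by 0.31 ± 0.10, a call lost with only the 7 RFH arrays (adjusted p = 0.118). Among 42 genes of the citric acid cycle and fatty acid oxidation 5 rose and 1, PPARGC1A, fell, with a median of 0.01, and 1 rose without juvenile RFH replicate 1. CPT1A, which carries fatty acids into mitochondria, rose by 1.20 ± 0.19 (adjusted p = 0.00270), from 9.71 to 10.20 in juvenile RFH to 10.99 to 11.48 in adult arrays. Juvenile WT arrays averaged 10.38 for CPT1A, between the 2 RFH groups.

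Genes that respond to low oxygen did not move together. Of 20 hypoxia targets 5 rose, including ANGPTL4, and 3 fell, with a median of 0.05. STC1, a secreted regulator of calcium and phosphate, rose 4.07-fold, from 8.16, 8.74 and 8.85 to 10.04, 11.25, 9.94 and 11.21. EPAS1, the oxygen-sensitive factor HIF-2alpha, rose by 1.25 ± 0.20 (SE, adjusted p = 0.00306), and HIF1A rose by 0.37 ± 0.11 (adjusted p = 0.0377; 0.0834 with only the 7 RFH arrays). P4HA2, which hydroxylates collagen, fell by 0.68 ± 0.12. VEGFA, the angiogenic growth factor, fell by 0.53 ± 0.14 on its brightest probe set (adjusted p = 0.0275), but 2 other probe sets of the gene were called upward, so its direction is unsettled. ADM, another target, changed by 0.42 ± 0.20 (adjusted p = 0.191).

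Genes of the response to amino acid shortage were called in both directions. In this response the transcription factor ATF4 switches on further regulators as well as enzymes that make serine, glycine and proline. Of 18 measured genes 6 rose and 6 fell, or 5 and 4 with only the 7 RFH arrays. CEBPB, a factor that pairs with ATF4, was at 10.69, 10.61 and 10.89 in juvenile RFH and 12.23, 12.27, 12.34 and 12.09 in adult arrays, and rose by 1.51 ± 0.10 (SE, adjusted p = 1.14e-05). PPP1R15A, which ends the translational block of stress, rose by 1.94 ± 0.17, from values of 8.57 to 9.02 to values of 10.35 to 11.10. DDIT3, the factor CHOP, rose by 0.85 ± 0.14, the arginine and lysine transporter SLC7A1 by 0.73 ± 0.12, and ATF4 itself by 0.44 ± 0.11 (adjusted p = 0.0183; 0.0504 with only the 7 RFH arrays). CEBPG, a partner of ATF4, also rose.

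On the falling side PSPH, which completes serine synthesis, was at 8.97, 9.08 and 8.92 in juvenile RFH and at 8.50, 7.78, 7.87 and 7.86 in adult arrays, a fall of 0.99 ± 0.16 (SE, adjusted p = 0.00269). PSAT1, the preceding enzyme of that pathway, fell by 0.74 ± 0.16 (adjusted p = 0.0105). PHGDH, which opens it and was singled out after its values were seen, fell by 0.45 ± 0.13 (adjusted p = 0.0432; 0.101 with only the 7 RFH arrays). So the 3 enzymes of this pathway were called lower in adults, PHGDH in the 10-array fit only. PYCR1, which completes proline synthesis, fell by 1.07 ± 0.21 (adjusted p = 0.00797), from 9.33 to 9.96 to values of 8.11 to 8.91. The mitochondrial folate enzyme ALDH1L2 and the lipoprotein receptor VLDLR made up the remaining falls, and VLDLR was not called with only the 7 RFH arrays (adjusted p = 0.0531). ASNS, the asparagine synthetase, changed by 0.24 ± 0.22 (adjusted p = 0.487), with adult replicate 2 at 9.62 and the other adults at 8.73 to 8.81. Juvenile WT means of PSPH, PSAT1 and PYCR1 were 8.63, 11.16 and 9.30, each below the juvenile RFH mean and above the adult mean.

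**Figure D4:**
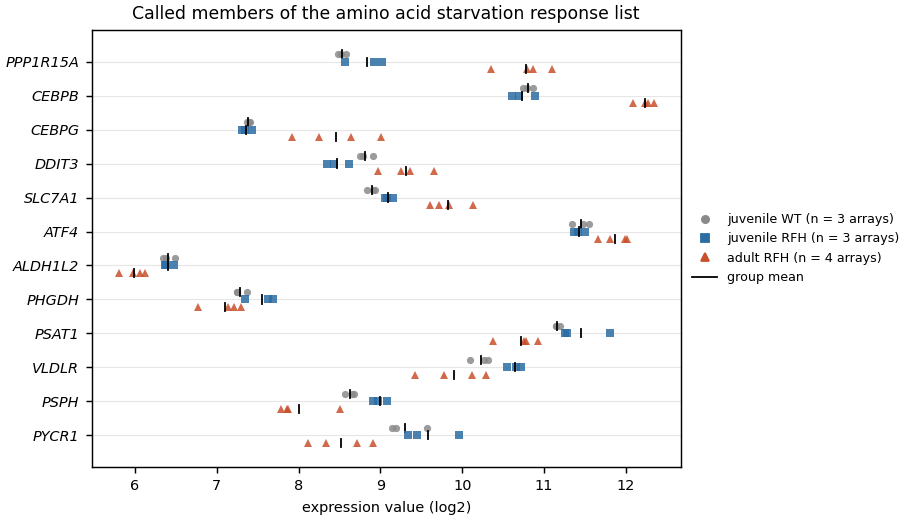
Expression values on the log2 scale (x axis) of the 12 called members of the amino acid starvation list, with 1 point per array and a bar at each group mean. The 6 regulators and transport genes in the upper rows lie to the right in adult RFH arrays, and the 6 lower rows, with PSPH, PSAT1 and PYCR1, lie to the left.

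Genes of the endoplasmic reticulum went both ways and were called about as often as genes in general, 21.1% against 19.3%. Of 38 unfolded protein response and folding genes 4 rose and 4 fell, with a median of -0.01, and with only the 7 RFH arrays 2 rose and 1 fell. DNAJB9, a co-chaperone induced by unfolded protein, rose by 1.05 ± 0.16 (SE, adjusted p = 0.00234) and DNAJC3, which curbs the stress kinase PERK, by 0.72 ± 0.15 (adjusted p = 0.00970). The call of DNAJC3 was lost when the probe sets of a gene were averaged. MANF and EDEM2 also rose. The falls were in the glycosylation subunits DDOST and RPN1 and the disulfide isomerases PDIA3 and PDIA6, and ranged from 0.30 to 0.42. HSPA5, the main chaperone of the compartment, changed by 0.21 ± 0.12 (adjusted p = 0.257).

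Among 59 genes of Rab GTPases and vesicle traffic 3 rose and 8 fell. In all 18.6% were called, against 19.3% of all genes (11.4% upward and 7.85% downward). Of the 8, 7 serve traffic between the endoplasmic reticulum and the Golgi: the 3 retrieval receptors KDELR1, KDELR2 and KDELR3, the COPI coat genes COPA and COPG1, and the COPII coat genes SEC24D and SEC31A. KDELR3 fell by 0.65 ± 0.12 (SE, adjusted p = 0.00509), from 11.74, 11.63 and 11.70 to 11.18, 10.75, 11.16 and 11.09. COPG1 fell by 0.52 ± 0.10 (adjusted p = 0.00723), from 10.33 to 10.64 to values of 9.78 to 10.04. The shared route was noticed after the values were seen. The list was drawn up with further genes of that route, such as COPB1, SEC23A and TMED10. The route's share of the 59 measured genes was not counted. With only the 7 RFH arrays 3 falls were called, KDELR3, COPG1 and SEC31A, and 2 without juvenile RFH replicate 1. ARF6, a GTPase of the plasma membrane, rose by 0.61 ± 0.09 (adjusted p = 0.00228).

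Of 59 cytosolic ribosomal protein genes 0 rose and 1 fell (RPL37, by 0.70 ± 0.16), and the list's median was 0.01. Mitochondrial ribosomal proteins had 4 rises and 3 falls among 57 (median 0.02), and with only the 7 RFH arrays 1 and 1. Among 41 ribosome assembly genes 35 had positive changes, with a median of 0.26, but 5 passed the test, 2 without juvenile RFH replicate 1 and 10 without adult replicate 4. The list's means were 8.68, 8.97, 8.44 and 8.42 in adult replicates 1 to 4 and 8.31, 8.34 and 8.47 in juvenile RFH replicates 1 to 3. Adult replicates 3 and 4 thus lay below juvenile RFH replicate 3, and without adult replicate 2 the median was 0.13. Over all genes the median was 0.02, and positive changes were not counted there. GAR1, which guides pseudouridine formation, rose by 0.48 ± 0.10 (SE, adjusted p = 0.00944), from values of 8.01 to 8.17 to values of 8.37 to 8.66. LYAR, a nucleolar protein, rose by 0.48 ± 0.10 and GNL3, nucleostemin, by 0.90 ± 0.20. EIF4A1, the helicase that unwinds messenger RNA for translation, was at 11.15, 11.23 and 11.16 in juvenile RFH and 12.20, 12.68, 12.24 and 11.97 in adult arrays (2.13-fold, adjusted p = 0.000886). In all, 3 of 38 translation factors rose and 2 fell, and 3 of 17 tRNA synthetase genes rose, among them DARS by 0.69 ± 0.14.

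Genes of RNA splicing changed in both directions. Of 67 members 10 rose and 6 fell, and with only the 7 RFH arrays 4 rose and 5 fell. In all 23.9% were called in the 10-array fit, not far from the 19.3% of all genes. TRA2B, a splicing activator, was at 10.70, 10.80 and 10.90 in juvenile RFH and 11.72, 11.65, 11.48 and 11.55 in adult arrays (adjusted p = 0.000411), and the related SRSF7 and SRSF3 rose by 0.81 ± 0.13 and 0.51 ± 0.09. CLK2, a kinase of such factors, fell by 0.48 ± 0.09. The cold-inducible RNA-binding proteins parted, since RBM3 rose by 0.98 ± 0.12 (SE, adjusted p = 0.000560) and CIRBP fell by 1.27 ± 0.28 (adjusted p = 0.0119). The juvenile WT mean of RBM3, 11.63, lay with the adult values of 11.60 to 12.02 and not with the juvenile RFH values of 10.67 to 10.94. HNRNPL was alike, with a fall from 10.93 to 11.59 in juvenile RFH to 9.79 to 10.44 in adult arrays and a juvenile WT mean of 10.10. In these 2 genes the juvenile RFH mean lay apart from both other group means. LUC7L3 had a juvenile WT mean of 10.49, on the side of the juvenile RFH arrays.

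Protein disposal changed gene by gene. Of 39 proteasome genes 2 rose, PSME4 by 0.56 ± 0.11 (SE, adjusted p = 0.00711) and PSMC1, and 0 fell. PSMC1 was not called with only the 7 RFH arrays. Of 48 ubiquitin and autophagy genes 8 rose and 5 fell, 6 and 2 with only the 7 RFH arrays. UCHL1, a deubiquitinating enzyme of neurons, was at 9.24, 9.24 and 9.29 in juvenile RFH and 10.91, 10.16, 11.21 and 10.64 in adult arrays (2.77-fold, adjusted p = 0.00195). BAG3, which hands clients to autophagy and belongs to the heat shock genes, rose by 1.25 ± 0.12. ATG7, needed to build autophagosomes, rose by 0.52 ± 0.10, and WIPI1, which marks their membranes, fell by 0.73 ± 0.11, from 10.05 to 10.14 to values of 9.10 to 9.58.

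The list of D-type cyclins and CDK inhibitors also holds PLK, BTG and E2F genes. No D-type cyclin in it was called, and CDKN2D was the only CDK inhibitor called. Of its 16 measured genes 6 rose and 0 fell, 6 also with only the 7 RFH arrays. They were the kinases PLK2 and PLK3, the inhibitor CDKN2D, the antiproliferative BTG1 and BTG2, and E2F3. CDKN2D, which blocks the D-cyclin kinases, was at 7.50, 7.76 and 7.55 in juvenile RFH and 8.93, 8.48, 8.62 and 8.49 in adult arrays, a rise of 1.03 ± 0.12 (SE, adjusted p = 0.000461). BTG1 rose by 0.81 ± 0.09 (adjusted p = 0.000472), from 11.82 to 12.09 to values of 12.70 to 12.79, and PLK3, induced by stress, by 1.26 ± 0.12 (adjusted p = 0.000182). BTG2, singled out after its values were seen, rose by 2.27 ± 0.28, from 9.85 to 10.12 in juvenile RFH arrays to 13.20 in adult replicate 1 and 11.74 to 12.06 in the other adults. CCND2 changed by -0.15 ± 0.16 (adjusted p = 0.563).

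Of 31 cell cycle and mitosis genes 1 rose and 6 fell, 4 had positive changes, and the median was -0.25. CCNB1, the cyclin that drives entry into mitosis, was at 6.95, 7.86 and 6.59 in juvenile RFH and 5.80, 6.10, 5.72 and 6.01 in adult arrays (2.34-fold lower, adjusted p = 0.0167). CDC20, PTTG1, CENPF, NUSAP1 and RACGAP1 were the other falls, and TOP2A changed by -0.93 ± 0.32 (adjusted p = 0.0727). Juvenile RFH replicate 2, the array with heart muscle transcripts, held the highest CCNB1 value. Without it 1 of the 31 genes fell, and with only the 7 RFH arrays 3 did. CKS2, a small partner of the cyclin-dependent kinases, went against its list and rose by 1.72 ± 0.22 (SE, adjusted p = 0.000891), from 8.88 to 9.64 to values of 10.65 to 11.23. Among 33 DNA replication genes 2 rose and 4 fell, 1 and 1 with only the 7 RFH arrays, RFC5 of the clamp loader the most firmly at -0.78 ± 0.11 (adjusted p = 0.00161).

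Chromatin genes that fell included both kinds of DNA methyltransferase. Of 36 histone and chromatin genes 1 rose and 5 fell, with a median of -0.11. In all 16.7% were called, against 19.3% of all genes (11.4% upward and 7.85% downward). DNMT1, which copies methylation at replication, was at 9.52, 9.65 and 9.70 in juvenile RFH and 9.16, 9.16, 9.04 and 9.15 in adult arrays, a fall of 0.49 ± 0.09 (SE, adjusted p = 0.00448). DNMT3A, which sets new methylation, fell by 0.67 ± 0.11 (adjusted p = 0.00322), from 9.02 to 9.18 to values of 8.24 to 8.66. EED, a core part of Polycomb complex PRC2, fell by 0.52 ± 0.09, and SMARCA5, a nucleosome remodeller, rose by 0.90 ± 0.15. Of 26 apoptosis regulators 4 rose and 0 fell, 4 in each fit that left out 1 RFH array. That is 15.4%, not far from the 11.4% of all genes that rose. The 4 genes sit on both sides of cell death. MCL1, which prevents it, rose by 0.63 ± 0.10, PMAIP1 (NOXA), which antagonises MCL1, by 2.12 ± 0.33, and the receptor TNFRSF12A by 1.08 ± 0.19. PMAIP1 was higher in adult replicates 1 and 2, at 8.77 and 8.91, than in 3 and 4, at 7.46 and 7.65, against 5.75 to 6.42 in juvenile RFH arrays.

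**Figure D5:**
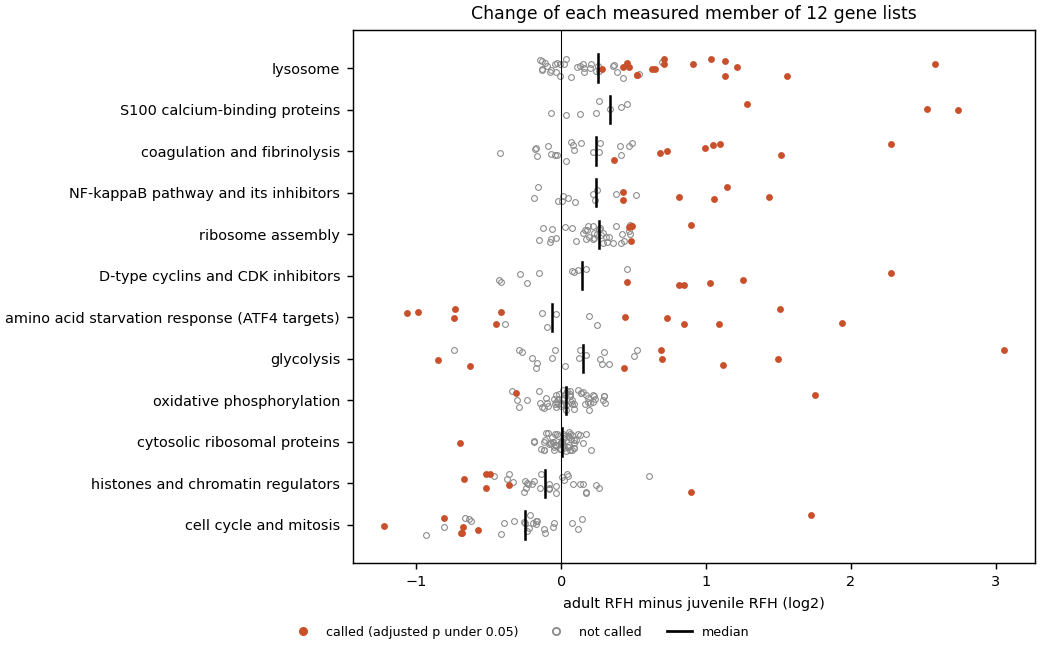
Change from juvenile to adult RFH leaflets (x axis, log2) of every measured member of 12 gene lists, with filled points for called genes and a bar at each list's median. Lysosome and ribosome assembly medians lie at 0.26, oxidative phosphorylation and cytosolic ribosome medians at 0.03 and 0.01 with few filled points, and the cell cycle median at -0.25. The ribosome assembly means of adult replicates 3 and 4 lay within the juvenile RFH range.

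Of 18 measured NF-kappaB signalling genes 6 rose and 0 fell, inhibitors and receptors alike, with a median of 0.24, and 3 rose without juvenile RFH replicate 1 or 3. NFKBIB, an inhibitor that holds NF-kappaB in the cytoplasm, was at 8.61, 8.68 and 8.80 in juvenile RFH and 10.03, 10.35, 10.33 and 9.81 in adult arrays (2.70-fold, adjusted p = 0.000105). NFKBIA, the better known inhibitor, was uneven at 13.11, 12.15, 11.71 and 12.82 in the adults against 11.22 to 11.50, and its rise of 1.06 ± 0.28 (SE, adjusted p = 0.0259) was not called with only the 7 RFH arrays (adjusted p = 0.0685). TLR2, a receptor for bacterial lipoproteins, rose by 1.14 ± 0.16 (adjusted p = 0.00140), and TLR4, CYLD and IKBKG, the kinase scaffold, also rose. SOD2, the mitochondrial superoxide dismutase, rose by 1.27 ± 0.24 and NAMPT, which makes NAD, by 1.28 ± 0.12.

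Of 27 TGF-beta and BMP genes 7 rose and 4 fell, 5 and 2 with only the 7 RFH arrays. The ligand TGFB1 was at 7.82, 8.39 and 8.12 in juvenile RFH and 9.49 to 9.95 in adult replicates 1, 2 and 4, with replicate 3 lower but clear of the juveniles (2.68-fold, adjusted p = 0.00147). TGFB2 changed by 0.06 ± 0.16 and TGFB3 by -0.66 ± 0.23 (adjusted p = 0.823 and 0.0791). TGIF1, a repressor of SMAD activity, rose by 1.04 ± 0.16 (SE, adjusted p = 0.00201), FSTL3, which binds activin, by 1.09 ± 0.21, and SMAD3 by 0.79 ± 0.16. SMAD1, which carries BMP signals, fell by 0.68 ± 0.12 (adjusted p = 0.00520), from 10.04 to 10.23 to values of 9.28 to 9.68. Its target ID1 fell by 0.55 ± 0.17, a call not kept with only the 7 RFH arrays (adjusted p = 0.0983), with adult replicate 2 at 12.14 and the other adults at 11.42 to 11.44. ID3 rose by 0.29 ± 0.09 (adjusted p = 0.0416; 0.104 with only the 7 RFH arrays).

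HBEGF and AREG, ligands of the EGF receptor, both rose. HBEGF was at 6.20, 6.21 and 5.85 in juvenile RFH and 9.36, 8.96, 8.59 and 9.08 in adult arrays (7.53-fold, adjusted p = 5.78e-06), and AREG was 4.24-fold higher, from 4.56 to 5.11 to values of 6.22 to 7.28. In the list of growth factors and their receptors 6 of 32 rose and 3 fell, and without adult replicate 3, the lowest for AREG, 11 rose. GAS6, a ligand of receptors for dying cells, rose by 0.45 ± 0.09 (SE, adjusted p = 0.00804). In the insulin-like growth factor axis 4 of 17 genes rose and 1 fell, 2 and 1 with only the 7 RFH arrays. IGFBP6, which prefers IGF2, was at 8.95, 8.72 and 8.88 in juvenile RFH and 10.04, 10.11, 9.96 and 9.87 in adult arrays (2.21-fold, adjusted p = 6.62e-05). IGF1 and IGF2 themselves changed by -0.43 ± 0.21 and 0.21 ± 0.18 (adjusted p = 0.191 and 0.472).

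The Notch target HES1 rose by 1.10 ± 0.22 (SE, adjusted p = 0.00744), from 7.44 to 7.72 to values of 8.19 to 9.20, and 3 of the 14 Notch genes fell, 0 with only the 7 RFH arrays. Of 21 MAP kinase and phosphatase genes 1, DUSP1, rose and 1 fell, and neither was called with only the 7 RFH arrays. Among transcription factors of valve development and the KLF family, 2 of 26 rose and 3 fell. SNAI1, which drives the change from epithelium to mesenchyme, was at 6.06, 5.84 and 5.90 in juvenile RFH and 6.74 to 7.20 in adult arrays (2.13-fold, adjusted p = 0.000302). KLF10, induced by TGF-beta, rose by 1.06 ± 0.20, and KLF13 fell by 0.51 ± 0.09.

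Nuclear receptor and steroid response genes gave 3 rises and 2 falls among 33, 1 and 2 with only the 7 RFH arrays. KLF9, induced by glucocorticoid and thyroid hormone, fell by 0.69 ± 0.13 (SE, adjusted p = 0.00639), from values of 12.12 to 12.30 to values of 11.34 to 11.81, and KLF15 fell too. The glucocorticoid targets FKBP5 and TSC22D3 changed by -0.15 ± 0.30 and -0.29 ± 0.16 (adjusted p = 0.771 and 0.233). RARA, a retinoic acid receptor, rose by 0.66 ± 0.12.

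Of 28 genes of blood clotting and its control 8 rose and 0 fell, promoters and inhibitors of clotting among them, 6 with only the 7 RFH arrays, and the median was 0.24. A2M, a broad protease inhibitor, was at 6.33, 6.97 and 6.30 in juvenile RFH and 8.15 to 9.48 in adult arrays (4.84-fold, adjusted p = 0.000662). Its 2 other probe sets were not called. F3, tissue factor, which starts clotting, rose 1.99-fold (adjusted p = 0.00300), but at values of 3.61 to 3.96 and 4.47 to 5.11, low on the scale. PLAT, the activator that dissolves clots, rose by 1.10 ± 0.21 and PROCR, the endothelial protein C receptor, by 1.52 ± 0.33. SERPINE2, which inhibits thrombin, rose by 0.73 ± 0.12 (SE, adjusted p = 0.00358) from 10.94 to 11.39 to values of 11.73 to 12.01, with a juvenile WT mean of 11.68, near the adult side. The means of the clotting list were 8.96, 8.80, 8.79 and 8.81 in adult replicates 1 to 4, highest in replicate 1. Endothelial markers rose too, with the highest mean in adult replicate 2. Of 20 members 9 rose and 1, ERG, fell, with a median of 0.71, and the list's means were 9.84, 10.13, 9.26 and 9.79 in adult and 8.85 to 9.16 in juvenile RFH arrays. ECSCR, an endothelial surface protein, rose 3.29-fold, NOS3, the endothelial nitric oxide synthase, by 1.71 ± 0.33, and S1PR1, a sphingosine phosphate receptor, by 1.39 ± 0.27. CDH5, which joins endothelial cells, changed by 0.25 ± 0.35 (adjusted p = 0.675), and PECAM1 by 0.69 ± 0.23 (adjusted p = 0.0690). PROCR and THBD stand in or beside both sets, and the part of endothelial transcripts in the clotting genes was not tested.

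S100 proteins, small calcium sensors, included 3 rises among 11 members and 0 falls, with 10 of 11 changes positive and a median of 0.33. Besides S100A1 and S100A9, S100A4, known from motile cells, rose by 1.29 ± 0.23 (SE, adjusted p = 0.00497), with adult replicate 1 the highest at 10.78. S100A8 and S100A12, the usual companions of S100A9, changed by 0.45 ± 0.31 and 0.41 ± 0.23 (adjusted p = 0.355 and 0.243). Without adult replicate 3 the list had 5 rises.

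Iron, metal and transport genes were mixed. Of 20 genes of metallothionein, iron and heme 4 rose and 4 fell, 1 and 1 with only the 7 RFH arrays. FTL, the light ferritin chain, rose by 0.38 ± 0.08 (SE, adjusted p = 0.0105), from 13.99 to 14.03 to values of 14.27 to 14.46. The call of FTL was lost when the probe sets of a gene were averaged. HMOX1, which degrades heme, rose by 1.14 ± 0.34 and the metal-binding MT1A by 1.82 ± 0.56 (adjusted p = 0.0453 and 0.0489), and neither was called with only the 7 RFH arrays. MT1A was at 8.40 in adult replicate 4, within the juvenile RFH range of 8.29 to 8.71, and at 10.78 to 11.13 in the other adults. Among 27 solute carriers 5 rose and 1 fell, 2 and 0 with only the 7 RFH arrays. SLC11A1, the metal transporter of phagosomes, rose by 1.50 ± 0.29, and SLC6A8, the creatine transporter, by 0.54 ± 0.12. ODC1, which opens polyamine synthesis, was at 10.02, 9.50 and 9.68 in juvenile RFH and 11.79, 12.01, 11.73 and 11.91 in adult arrays (4.36-fold, adjusted p = 1.30e-05).

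Several genes of the contractile apparatus changed. TAGLN2 was at 11.98, 12.09 and 11.92 in juvenile RFH and 12.82, 12.95, 12.67 and 13.03 in adult arrays (adjusted p = 0.000513), and ARPC1B, of the complex that branches actin, rose by 0.54 ± 0.09 (SE, adjusted p = 0.00412). Falls were called in PDLIM3, VCL, ACTA2, TPM1 and MYOCD, which code for parts of contractile fibres, their anchors and the factor that switches them on. The rises named here are only a part of those among actin genes, so the balance of rises and falls cannot be read from this paragraph. MYOCD was not called with only the 7 RFH arrays (adjusted p = 0.0592). ACTA2, smooth muscle actin, was at 12.78, 12.46 and 12.29 in juvenile RFH and 11.70, 10.89, 11.88 and 11.57 in adult arrays (2.00-fold lower, adjusted p = 0.0103), and VCL, vinculin, fell by 0.50 ± 0.10. The call of VCL was lost when the probe sets of a gene were averaged. TAGLN, another contractile gene, changed by -0.13 ± 0.15 (adjusted p = 0.606). Smooth muscle and pericyte markers had 2 falls among 10, 0 without juvenile RFH replicate 1. Among 34 channels and receptors 2 rose, the potassium channel KCNN4 and the chloride channel CLIC1, and 4 fell, CHRNA1 and the calcium release channel RYR3 among them. With only the 7 RFH arrays there were 2 rises and 2 falls.

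Of 8 measured clock genes 2 rose and 1 fell. NFIL3 was at 9.56, 9.90 and 10.08 in juvenile RFH and 12.35, 12.83, 13.18 and 12.78 in adult arrays (7.66-fold, adjusted p = 2.39e-05), and BHLHE40, another repressor of the clock loop, rose 4.85-fold. The other probe set of BHLHE40 was not called. ARNTL (BMAL1), the activator of that loop, fell by 1.01 ± 0.22 (SE, adjusted p = 0.0127), and it was not called when juvenile RFH replicate 3 was left out. PER1, also a repressor of the loop, and the output DBP changed by 0.07 ± 0.19 and 0.03 ± 0.13 (adjusted p = 0.836 and 0.909). The labels give no hour of collection. In the synthesis of sterols and fatty acids 3 of 25 genes rose and 1 fell, with a median of -0.15. INSIG1, which holds back sterol synthesis, was at 10.37, 10.17 and 10.23 in juvenile RFH and 11.70, 12.45, 11.81 and 11.60 in adult arrays (3.11-fold, adjusted p = 0.000356), and HSD17B7, an enzyme of the pathway, rose by 1.38 ± 0.09 (adjusted p = 1.30e-05). The pathway enzymes HMGCS1 and SQLE changed by -0.31 ± 0.17 and -0.28 ± 0.19 (adjusted p = 0.255 and 0.368).

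Markers of other cell types were read in the same way. Interstitial fibroblast markers had 3 rises and 5 falls among 17. FAP, the fibroblast activation protein, was at 8.07, 7.97 and 8.31 in juvenile RFH and 8.75, 8.94, 9.11 and 9.70 in adult arrays (2.01-fold, adjusted p = 0.00828), and POSTN, periostin, fell by 1.06 ± 0.20 (SE, adjusted p = 0.00570). The mean of this list was 11.47 and 11.29 in adult replicates 1 and 2 and 11.69 and 11.91 in replicates 3 and 4, opposite in order to the macrophage list. Erythroid markers fell in 3 of 6 genes, at a list mean of 6.02 ± 0.20 (SD, n = 4) in adult and 7.01 ± 0.35 (SD, n = 3) in juvenile RFH arrays, and the juvenile WT mean was 6.25. Of 17 T and NK cell markers 0 were called, with a list mean of 6.43 in adult replicate 2 and 5.41 to 5.79 in the other adults. Of 7 neutrophil and mast cell markers 2 rose, and of 4 B and plasma cell markers 1. Adipocyte markers had 5 rises among 15, 2 with only the 7 RFH arrays. FABP4 was at 3.90, 4.18 and 3.66 in juvenile RFH and 9.65, 7.87, 6.79 and 6.64 in adult arrays (adjusted p = 0.00213), low on the scale in the juveniles. CIDEA, which enlarges lipid droplets, rose by 0.85 ± 0.11. Schwann cell and neuronal markers had 3 rises among 14, and cardiac and skeletal muscle lists 0 among 21 and 12.

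Many list counts moved by more than 1.5 times when 1 array was left out, beyond the cases already given. Without juvenile RFH replicate 2, the array with heart muscle transcripts, 5 splicing genes rose, as did 3 each of the citric acid cycle, ribosome assembly, solute carrier and adipocyte lists, 2 of the metallothionein and iron list, 1 each of DNA replication, proteasome and nuclear receptor genes and 0 B cell markers. Falls without it numbered 3 for ubiquitin and autophagy, 2 for erythroid markers, 1 each for the unfolded protein response, glycolysis, translation factor, metallothionein and iron, growth factor and smooth muscle lists, and 0 for mitochondrial ribosomal proteins, Notch, oxidative phosphorylation and sterol genes. The median of the cardiac list was -0.29 with that array and -0.01 without it.

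Without juvenile RFH replicate 1 the rises numbered 4 each for ubiquitin and autophagy, TGF-beta and BMP and splicing genes and 3 for hypoxia targets. They numbered 2 each for the unfolded protein response, mitochondrial ribosome, solute carrier, IGF and adipocyte lists. There was 1 rise each of Rab and vesicle traffic, metallothionein and iron, nuclear receptor, proteasome, neutrophil and Schwann cell genes, and 0 of DNA replication and B cell genes. Falls without it were 3 each of cell cycle and ubiquitin and autophagy genes, 2 each of DNA replication and TGF-beta and BMP genes, 1 each of mitochondrial ribosomal proteins and of metallothionein and iron genes, and 0 of unfolded protein response, Notch, sterol, solute carrier and IGF genes.

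Without juvenile RFH replicate 3 there were 6 rises of splicing genes, 3 each of hypoxia and citric acid cycle genes and 2 each of unfolded protein response, solute carrier, IGF and adipocyte genes. There was 1 rise each of mitochondrial ribosomal, tRNA synthetase, metallothionein and iron, nuclear receptor, DNA replication and proteasome genes. Falls were then 5 of Rab and vesicle traffic genes, 3 of cell cycle genes, 2 each of ubiquitin and autophagy, TGF-beta and BMP and channel genes, 1 each of hypoxia, glycolysis, translation factor, metallothionein and iron, growth factor and nuclear receptor genes, and 0 of cytosolic and mitochondrial ribosomal proteins, Notch and solute carrier genes.

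Leaving out an adult array raised several counts. Without adult replicate 3 the rises were 7 each for channel and mitochondrial ribosomal genes, 5 each for Rab and vesicle traffic and sterol genes, 4 for the proteasome, 3 each for Notch and chromatin genes and 2 for T and NK cell markers, and 4 smooth muscle markers and 3 solute carriers fell. Without replicate 4 there were 8 rises of mitochondrial ribosomal proteins and 5 falls of valve development and KLF factors. Without replicate 1 the falls were 3 of cell cycle genes, 2 each of DNA replication and TGF-beta and BMP genes and 1 of Notch genes, and 3 ribosome assembly genes rose. Without replicate 2 there were 3 rises of ribosome assembly genes, 2 rises and 1 fall of metallothionein and iron genes, 3 falls of ubiquitin and autophagy genes and 1 each of Notch and growth factor genes.

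Where a list has 0 rises or 0 falls, limma's unadjusted p was under 0.05 in that direction for 2 of the D-type cyclin and CDK inhibitor genes and 1 gene each of the proteasome, apoptosis, coagulation, tRNA synthetase and Schwann cell lists. The same count was 0 for falls of lysosome, ribosome assembly, NF-kappaB, S100, macrophage, adipocyte, neutrophil and B cell genes and for rises of cytosolic ribosomal protein, erythroid and smooth muscle genes. It was 1 rise and 2 falls for cardiac genes, and 1 rise and 0 falls for T and NK cell and for skeletal muscle genes.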

How the data were processed

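Total RNA was labelled and hybridised to Affymetrix GeneChip Porcine Genome arrays, per the labels' protocols, and the authors deposited log2 values of each probe set in each array. The unit was read from the values. R 2.15.2 is the tool in the submitters' processing notes. How background, normalization and probe set summary were handled is not given in the sources used here. Of 24123 probe sets 124 controls were read separately. Exactly 1 gene symbol was given for 10069 of the rest, several for 198 and none for 13732, and the brightest probe set stood for a gene (6765 genes, 2261 with several). RefSeq held 9961 of the annotation entries, 0 with another symbol.

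Group means of all 10 arrays were fitted with limma 3.58.1 in R 4.3.3 (eBayes without trend, 7 residual and 3.57 prior degrees of freedom), so the WT arrays enter the spread but not the difference. P-values are two-sided and Benjamini-Hochberg adjusted over 23999 probe sets. A gene is said to rise or fall where the adjusted p is under 0.05, SE is limma's moderated one, and differences are adult minus juvenile RFH. In simulated data with 100 changed probe sets per size, 79% of changes of 1 and 97% of changes of 2 were recovered with 13 false calls. The simulation gave every group the same SD and left most probe sets unchanged. In the real arrays the adult SD was the larger in 75.3% of genes, so these rates need not hold for them. The number of arrays limits the precision.

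Of the genes, 587 were called in the 10-array fit, in the 7-array fit and in each fit without 1 RFH array, with no overlap of the groups. The text names the 15 largest rises and falls among those outside the stress, collagen, cytokine and earlier reported genes, up to 3 members per list and direction, and genes fixed by name. So their standing in those fits is by construction. A further 55 genes of the text were named after their values were seen, mostly to complete the calls of a list. The members and the 37 functional and 12 marker lists were chosen with earlier results of these data known. Lists are described by counts and medians and were not tested, and the result of a functional list is not reported here. Alternatives were other scalings, filters, priors, weights, a floor at 4, a covariate of RNA integrity, the replicate number as a block, an array left out and averaging over the probe sets of a gene. Replicate numbers were not treated as pairs, since they name animals of different age.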

Additional observations from a re-analysis of the deposited data

Results flagged for a closer look

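In 19 of 264 groups of 4 adult values examined (genes of the text, list means and controls), 1 array stood far from the other 3, where chance gives about 1 in 20. It was adult replicate 2 in 8, replicate 1 in 6, replicate 3 in 3 and replicate 4 in 2. All values are on the log2 scale.

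Adult replicate 2 was highest for ASNS at 9.62 (others 8.73 to 8.81), ID1 at 12.14 (others 11.42 to 11.44) and HIF1A at 12.53 (others 12.21 to 12.26). It was lowest for DBP at 7.96, DUSP1 at 13.04 and PDK4 at 10.40, and for the list means of D-type cyclins and CDK inhibitors at 9.14 (others 9.40 to 9.42) and of Schwann cell and neuronal markers at 6.64 (others 6.85 to 6.88). The same array had the highest macrophage and T cell marker means.

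Adult replicate 1 was highest for CIDEA at 7.50, PSPH at 8.50 and S100A4 at 10.78 and for the coagulation list mean at 8.96 (others 8.79 to 8.81). It was lowest for COPG1 at 9.78 and for the TGF-beta and BMP list mean at 8.75 (others 8.84 to 8.85). Replicate 3 was lowest for AREG at 6.22, DNMT1 at 9.04 and PLAT at 12.44. Replicate 4 was lowest for MT1A at 8.40 (others 10.78 to 11.13) and for the neutrophil and mast cell list mean at 6.0 (others 6.43 to 6.47).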

How the results depend on the processing

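With the spread taken from the 7 RFH arrays only, 2308 probe sets and 756 genes were called, and with an added fold threshold of 2 the counts were 905 and 317. Leaving out 1 array gave 2243 to 4965 probe sets and 738 to 1628 genes. The lowest counts came without juvenile RFH replicate 1 (2243 and 738), replicate 3 (2280 and 753) or replicate 2 (3027 and 913). The other alternatives stayed within 1.5 times of the 4025 probe sets and 1305 genes. The calls of 25 of 49 lists moved by over 1.5 times with only the 7 RFH arrays. List medians changed sign under another scaling in 7 lists, all within 0.054 of 0. Of 188 called genes of the text, 133 stayed past the threshold under every alternative in which they were present, which the naming rule favours. With only the 7 RFH arrays 153 did, and without each RFH array in turn 137. The filter on low probe sets kept 185 of the 212 genes of the text. Genes that it removed were not counted as lost. The gene VEGFA reversed, at 0.38 (adjusted p = 0.0383) with the mean of its probe sets, since other probe sets of the gene were called upward. Under the same averaging 10 more genes of the text lost their call. They were ATP6V1A, DNAJC3, FTL, HIF1A, NPC2, PDIA3, PDK4, RYR3, TLR4 and VCL. The replicate number as a block gave 3922 probe sets and 1231 genes. It cost 15 called genes of the text their call, among them HIF1A, ID1, ID3, NDUFS1 and NFKBIA. Same-numbered adult and juvenile RFH arrays correlated at -0.16, 0.16 and 0.09 in their deviations from the group means. Differently numbered arrays were not compared, so these values cannot decide whether a replicate number marks shared handling. The poly-A difference was 0.80 by mean and 0.91 by median. The planned search of promoters was not run. Values low on the scale, as for PPARGC1A in adults or F3, rest on background that the signal cannot resolve.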
